A study of Homo sapiens with 3 samples.

Results

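The cytosolic ribosomal protein genes were followed through 3 single-cell libraries of BxPC-3 cells, a human cell line from a pancreatic ductal carcinoma. Features were taken whose symbol is RPL or RPS with a number and an optional A, X or L, or is RPLP0, RPLP1, RPLP2 or RPSA. A mean of at least 5 counts per 1000000 UMIs (CPM) over the libraries was required. Kinases, pseudogenes and the Y-linked copy were left out. The rule matched 81 of 33694 features and kept 79, of which 47 belong to the large 60S subunit and 32 to the small 40S subunit. Both features under the floor are tissue-restricted paralogues. RPL3L had 4, 4 and 0 UMIs in the double-positive, single-positive and parental libraries, and RPL10L had 0 in each, where a count of 0 allows up to 3 UMIs. The lowest member above the floor was RPL39L, with a mean of 27.6 CPM.

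The study grew cells that stably expressed EGFP or mCherry, mixed both colours in equal number and kept them in suspension so that cell-in-cell structures formed. Double-positive cells carried both colours in the sort, single-positive cells carried 1 of them, and parental cells were the line itself. Whether both colours were pooled for single-positive capture is not given in the labels. Cells were expanded before capture, and no feature for either fluorescent protein was used here. With 1 library per group, differences between groups have no replicate check, and no p-value is given.

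Ribosomal proteins and ribosomal RNA form the small subunit, which reads the messenger RNA, and the large subunit, which joins amino acids. The proteins are needed in near equal amounts, and a surplus of free protein is usually degraded. Their mRNAs belong to the TOP class: they start with a C followed by a run of pyrimidines, and their translation depends on mTOR signalling. Pre-ribosomes are assembled in the nucleolus by a separate group of factors for ribosome biogenesis. In carcinoma cells, ribosome production supports growth, while free RPL5 and RPL11 can bind MDM2 and so raise p53.

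The start of transcription carries the feature that the members share and the rule did not use. Of the 79 members, 63 were found by symbol in a table of RefSeq start sites on GRCh38.p14. A start of C followed by at least 4 pyrimidines (C or T) on the gene's strand was present in 46 of these 63 genes, or 73.0%. It was present in 1404 of 27305 genes of the same table, or 5.14%. Translation factors and related TOP genes had it in 14 of 16 cases (87.5%), factors for ribosome biogenesis in 5 of 45 (11.1%) and proteins of the mitochondrial ribosome in 6 of 68 (8.82%). A match only describes these letters, and genes with several listed starts counted once. The starts below belong to members at both ends of the comparison of single-positive with parental cells, since these members carry the differences described later. Each shows 10 bases before and 20 bases from the RefSeq start, with the pyrimidine run at the start in capitals.
RPL37A, chr2:216498834-216498863, plus strand: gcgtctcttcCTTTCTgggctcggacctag
RPL36A, chrX:101391001-101391030, plus strand: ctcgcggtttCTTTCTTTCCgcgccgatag
RPL38, chr17:74203668-74203697, plus strand: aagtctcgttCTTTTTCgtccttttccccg
RPS29, chr14:49598691-49598720, minus strand: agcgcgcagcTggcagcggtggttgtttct
RPLP1, chr15:69452808-69452837, plus strand: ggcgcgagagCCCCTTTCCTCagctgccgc
RPL12, chr9:127451387-127451416, minus strand: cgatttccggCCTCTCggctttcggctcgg
RPL11, chr1:23691796-23691825, plus strand: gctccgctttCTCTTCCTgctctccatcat
RPS27L, chr15:63157458-63157487, minus strand: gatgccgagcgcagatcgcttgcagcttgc

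RPL37A, RPL36A and RPL38 had the motif, and so had RPLP1, RPL12 and RPL11 at the opposite end. RPS29 and RPS27L lacked it at the listed start, and they too lay at opposite ends. The median log2 ratio of single-positive over parental CPM was 0.022 for the 46 genes with the motif and 0.046 for the 17 without it. The ratios ran from -0.18 to 0.55 with the motif and from -0.18 to 0.41 without it, so the groups overlapped over most of their range.

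The 3 libraries were deep and almost all of their UMIs (unique molecular identifiers, which count captured mRNA molecules) lay in cells. Barcodes with at least 6500 UMIs were taken as cells, giving 1940 double-positive, 1291 single-positive and 2409 parental cells. They held 97.72% to 97.97% of all UMIs. The median cell had 29964 UMIs in the double-positive, 38137 in the single-positive and 23290 in the parental library. The mitochondrial share of UMIs was 2.06%, 1.22% and 0.974% in the same order. Between 1 and 6 cell barcodes were shared by a pair of libraries. Epithelial markers summed to 15245, 16164 and 16118 CPM with none of the 9 at 0, while fibroblast, endothelial, erythroid and neural or endocrine markers each summed to under 3 CPM. Immune markers summed to 36.5, 32.7 and 44.4 CPM.

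Between 16.7% and 17.2% of all mRNA molecules captured came from these 79 genes, and the share was nearly the same in every library. It was 16.71% in double-positive cells (95% exact binomial interval 16.70 to 16.72), 17.23% in single-positive cells (17.22 to 17.24) and 17.10% in parental cells (17.10 to 17.11). All intervals here cover counting error only. The log2 ratio of the summed level was -0.045 for double-positive over single-positive cells, 0.011 for single-positive over parental cells and -0.034 for double-positive over parental cells. Scaling by the median gene in place of all UMIs gave -0.017, -0.046 and -0.063, so that the sign of single-positive over parental cells depends on the scale. With mitochondrial UMIs left out, the share was 17.1%, 17.4% and 17.3%. Double-positive cells had the lowest level on both scales, but without cells under 0.5% mitochondrial UMIs their ratio over parental cells was 0.0118, and in a shared range of UMIs per cell it was -0.0044.

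The balance of the subunits differed little between libraries. The ratio of large-subunit to small-subunit UMIs was 1.451 in double-positive cells (1.449 to 1.452). It was 1.452 in single-positive cells (1.450 to 1.454) and 1.478 in parental cells (1.476 to 1.480). The sums run over 47 large-subunit and 32 small-subunit genes, so only the difference between libraries is read. Double-positive and single-positive cells had overlapping intervals, and both lay below parental cells. The log2 difference in balance was -0.027 for double-positive over parental cells and -0.025 for single-positive over parental cells. Without the cells that held under 0.5% mitochondrial UMIs, which were 767 of the 2409 parental cells, these values were -0.0091 and -0.0072. In a shared range of 22974 to 32998 UMIs per cell they were -0.0151 and -0.0015, so the lower balance of single-positive cells was nearly absent there. Double-positive over single-positive cells stood at -0.0018, and at 0.0033 in G1 cells.

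Single genes moved more than the sum. A member was counted as apart where its CPM ratio was at least 1.1-fold, a size rule and not a test. In single-positive over parental cells, 20 of 79 members were higher and 4 lower. Among all 9501 genes with at least 5 CPM, 29.7% were higher and 11% lower, and among the 777 genes with at least 200 CPM, 18.7% and 18.1%. With median-of-ratios scaling 15 members were higher and 11 lower. In double-positive over single-positive cells, 0 members were higher and 19 lower. The background there was 12.7% higher and 22.6% lower among all genes, and 12.9% and 16% among genes of at least 200 CPM. In double-positive over parental cells, 6 members were higher and 3 lower, against 19.9% and 11.7% of all genes and 9.91% in each direction at 200 CPM or more. With median-of-ratios scaling 1 was higher and 6 lower, without low-mitochondrial cells 2 were higher and 0 lower, in the shared range of UMIs 3 and 1, and with cells weighted alike 1 and 1. In shares, 20 of 79 lay between both backgrounds for single-positive over parental cells. The 19 of 79 lower in double-positive over single-positive cells lay just above the 22.6% of all genes. They lay further above the 16% of genes with at least 200 CPM, and 0 of 79 higher lay below both backgrounds. In the shared range of UMIs 1 member was higher, in G1 cells 1, and with cells weighted alike 2.

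Members of both subunits were among those apart. The 20 higher in single-positive over parental cells were 14 of the 47 members of the 60S and 6 of the 32 of the 40S subunit. The background there was 29.7% of all genes and 18.7% of genes with at least 200 CPM. The 19 lower in double-positive over single-positive cells were 12 of 47 and 7 of 32, against 22.6% and 16%. Neither subunit had a member higher in that comparison. The median member lay at -0.034 for double-positive over single-positive, 0.040 for single-positive over parental and -0.015 for double-positive over parental cells. The median of all genes tested lay at -0.026, 0.056 and 0.029. The first and second comparisons share the single-positive library, which lies on opposite sides of the ratio.

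**Figure D1:**
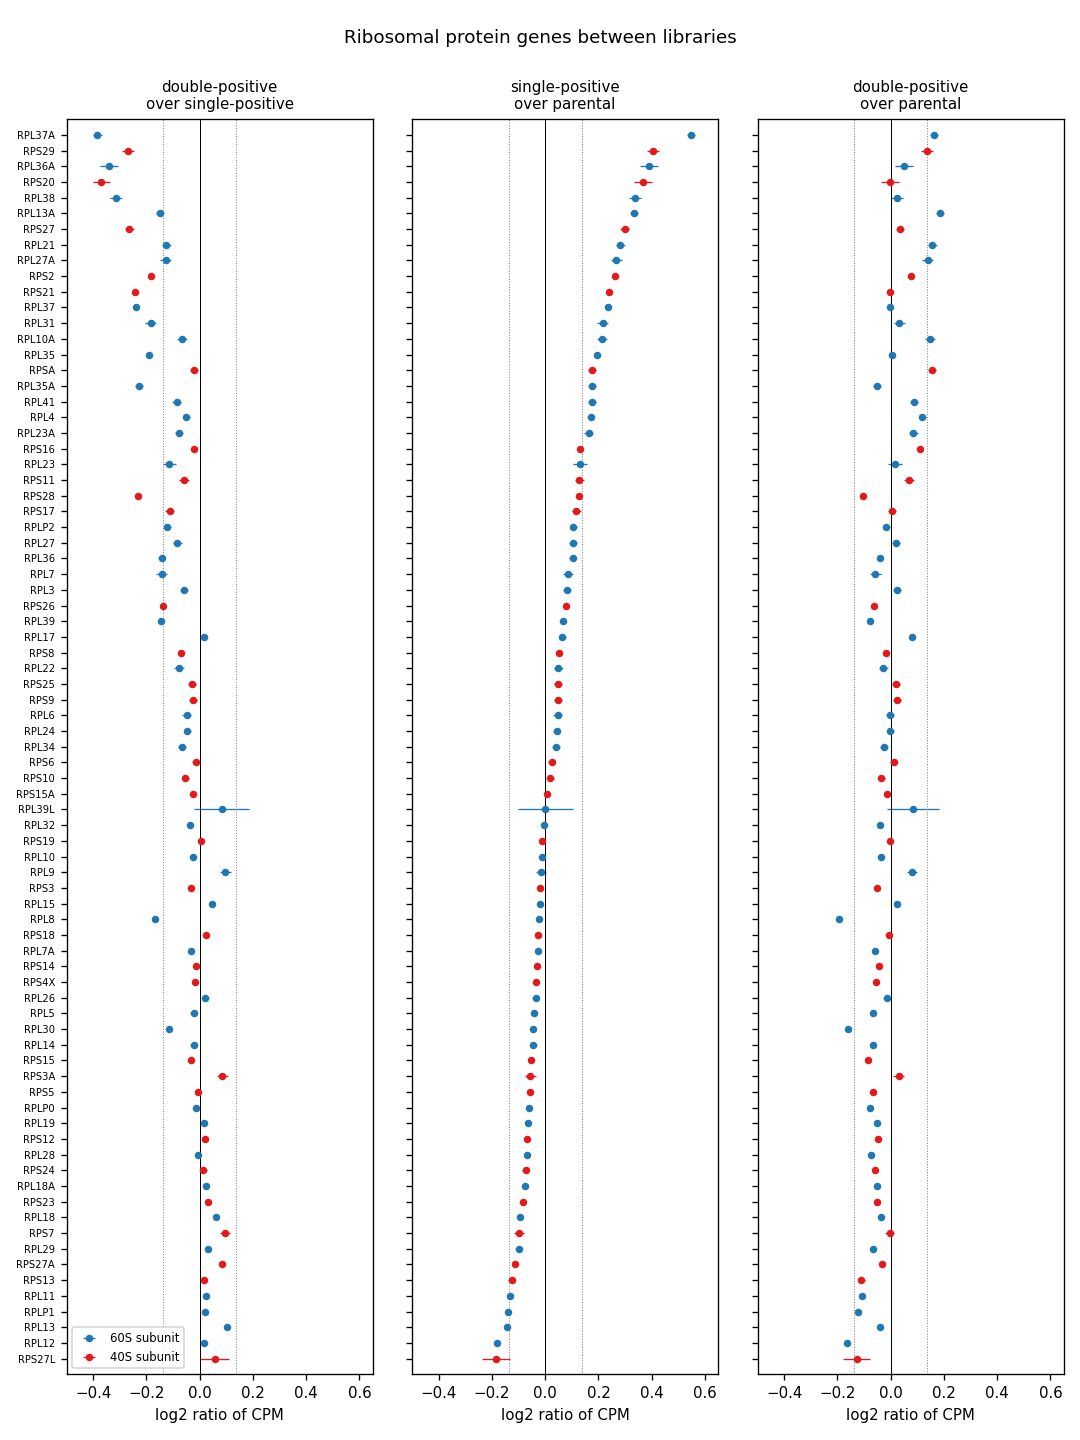
Log2 ratio of CPM for each of the 79 members (rows, ordered by single-positive over parental) in the 3 comparisons, with 95% exact intervals for counting error; dotted lines mark 1.1-fold. RPL37A, RPS29, RPL36A, RPS20 and RPL38 stand at the top of single-positive over parental cells and at the low end of double-positive over single-positive cells, while their double-positive over parental ratios run from -0.0016 to 0.16.

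A small group of members was high in the single-positive library against both others. RPL37A, a zinc-binding protein of the large subunit (chromosome 2, 216498189 to 216579180, plus strand, in GENCODE 29 on GRCh38), had 1068 CPM in double-positive, 1394 CPM in single-positive and 954 CPM in parental cells. Its log2 ratio was -0.38 (-0.40 to -0.37) for double-positive over single-positive cells and 0.55 (0.53 to 0.56) for single-positive over parental cells, the largest of all members in both. It was the one member of this group that double-positive cells also had at least 1.1-fold above parental cells, at 0.16.

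RPS29, a small zinc-binding protein of the 40S head (chromosome 14, 49570984 to 49599164, minus strand), had 543, 655 and 495 CPM in double-positive, single-positive and parental cells. RPL38 (chromosome 17, 74203582 to 74210655, plus strand), known in mice for its part in translating Hox mRNAs, had 533, 663 and 525 CPM in the same order. RPS20 (chromosome 8, 56067295 to 56074581, minus strand), a protein of the 40S head, had 232, 300 and 233 CPM. RPL36A (chromosome X, 101390824 to 101396154, plus strand), a protein of the large subunit, had 220, 279 and 213 CPM. For RPS29, RPL38, RPS20 and RPL36A alike, the single-positive library was the high one, and the other libraries lay within 1.1-fold of each other.

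Fewer members were apart at a stricter limit of 25% above the lower library. Single-positive over parental cells then had 6 of 79 members higher, the 5 above and RPL13A. The background was 4.66% of all genes and 3.35% of genes with at least 200 CPM, and the members lay above both. Double-positive over single-positive cells had 3 of 79 members lower, RPL37A, RPS20 and RPL36A, against 3.62% and 1.8%. That count was close to the share of all genes. RPL13A, which also takes part in a translation-silencing complex in interferon-treated myeloid cells, had 1316, 1459 and 1157 CPM in double-positive, single-positive and parental cells. Unlike RPS20, RPL38 and RPL36A, it was also higher in double-positive over parental cells, by 0.19 on the log2 scale.

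The excess was present at each depth, phase and class of mitochondrial share examined. Summed over RPL37A, RPS29, RPL36A, RPS20 and RPL38, the level was 2598 CPM in double-positive, 3292 CPM in single-positive and 2419 CPM in parental cells. These 5 members were chosen for their difference, so the values describe it and do not test it. Across 4 bins of UMIs per cell the sum ran from 2499 to 2703 CPM in double-positive, 3218 to 3441 CPM in single-positive and 2116 to 2687 CPM in parental cells. The ranges of single-positive cells lay wholly above both others. In G1 cells alone the sum was 2626, 3325 and 2471 CPM, in S cells 2671, 3369 and 2448 CPM, and in G2M cells 2526, 3213 and 2354 CPM. In cells with under 0.5% mitochondrial UMIs it was 2415, 3248 and 2335 CPM.

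The excess was also present outside cells. Barcodes with 100 UMIs or fewer hold free RNA, and there the sum was 2710 CPM in the double-positive, 3688 CPM in the single-positive and 2467 CPM in the parental library. Barcodes with at least 500 but fewer than 6500 UMIs, where mitochondrial UMIs made up 27.8%, 39.6% and 17.0%, had 2153, 3097 and 2498 CPM. The single-positive library was thus the high one in barcodes of each size class examined. Whether it belongs to the cells or to the making of that library cannot be told apart with 1 library per group.

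**Figure D2:**
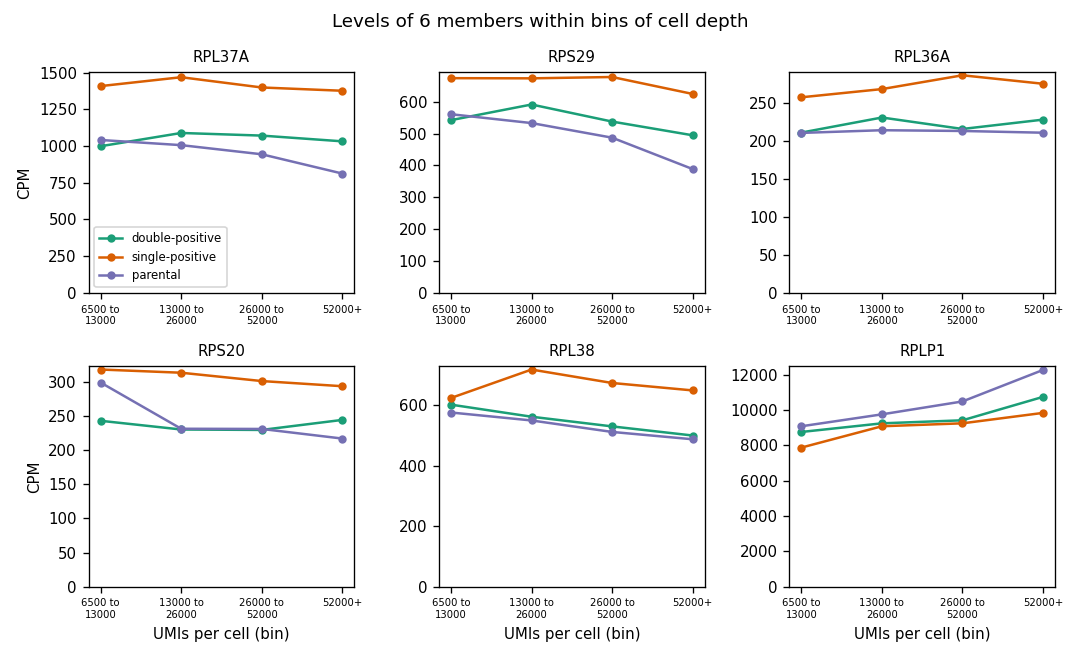
CPM of 6 members in cells grouped by UMIs per cell, with 1 line per library; no error is drawn. The single-positive library is highest for RPL37A, RPS29, RPL36A, RPS20 and RPL38 in all 4 bins, while RPLP1 is lowest there in 4 bins of 4.

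Shorter members were more often apart in this pattern than longer ones. Members were split at the median protein length of 151 residues into 40 shorter and 39 longer ones. In single-positive over parental cells, 13 of 40 shorter and 7 of 39 longer members were at least 1.1-fold higher. The background was 29.7% of all genes and 18.7% of genes with at least 200 CPM. The shorter members thus lay near the share of all genes, and the longer ones near that of abundant genes. In double-positive over single-positive cells, 15 of 40 shorter and 4 of 39 longer members were at least 1.1-fold lower. The background there was 22.6% and 16%, with the shorter members above both and the longer ones below both. The median log2 ratios in double-positive over single-positive cells were -0.10 for shorter and -0.022 for longer members. Across the 79 genes Spearman's rho between residues and log2 ratio was 0.38, -0.29 and -0.013 for double-positive over single-positive, single-positive over parental and double-positive over parental cells. With mean CPM it was 0.31, -0.50 and -0.55. These correlations are across genes measured in the same libraries, they describe only, and the part of transcript length in library making was not tested.

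At the low end of single-positive over parental cells stood RPS27L, RPL12, RPL13, RPLP1 and RPL11. RPLP1 forms the acidic stalk of the large subunit with RPLP2 on the base RPLP0, and RPL12 sits beside it. RPLP1 (chromosome 15, 69452784 to 69456194, plus strand) had 9554, 9428 and 10391 CPM in double-positive, single-positive and parental cells. RPL12 (chromosome 9, 127447674 to 127451405, minus strand) had 3619, 3577 and 4051 CPM. Both were at their highest in the parental library, while the log2 ratios of double-positive over single-positive cells were only 0.019 and 0.017. RPLP0 had 4656, 4706 and 4912 CPM in the same order. RPLP2, in contrast, was highest in single-positive cells, with 1767, 1923 and 1787 CPM.

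RPLP0, RPLP1 and RPL12 were higher in cells of low mitochondrial share, as were several members elsewhere in the ribosome. RPLP1 had 11264 CPM in double-positive cells with under 0.5% mitochondrial UMIs, against 9406 CPM in the other double-positive cells. It had 9909 CPM in such single-positive cells against 9225 CPM in the others, and 11446 against 9641 CPM in parental cells. These cells made up 120 of 1940 double-positive, 281 of 1291 single-positive and 767 of 2409 parental cells. Among the cells with 0.5% or more, RPLP1 was still highest in the parental library, and RPL12 had 3580, 3463 and 3670 CPM in double-positive, single-positive and parental cells. RPLP2 differed less between the classes, by 0.094, 0.083 and 0.086 on the log2 scale.

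RPL5 and RPL11, the partners of 5S ribosomal RNA that can bind MDM2, differed little between double-positive and single-positive cells. RPL5 had 2000, 2032 and 2092 CPM in double-positive, single-positive and parental cells. RPL11 had 2944, 2898 and 3172 CPM, with log2 ratios of -0.13 for single-positive over parental and -0.11 for double-positive over parental cells. Among 19 measured p53 target genes, 2 were higher and 10 lower in single-positive over parental cells, with a median of -0.17, against 29.7% higher and 11% lower among all genes. In double-positive over single-positive cells 9 were higher and 0 lower, with a median of 0.13, against 12.7% and 22.6%. RPS27L, a paralogue of RPS27 that p53 induces, had 97.8, 94.0 and 107 CPM. It had the lowest ratio of all members in single-positive over parental cells, at -0.18 (-0.24 to -0.13), and -0.17 in cells with at least 13000 UMIs. In the shared range of UMIs, which held 142 single-positive cells, it stood at 0.090, and the cause of that change of sign was not tested.

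RPS6, RPL10 and RPS4X lay close together in all libraries. RPS6, the target of S6 kinase, had 1645, 1661 and 1633 CPM in double-positive, single-positive and parental cells. RPL10, which completes the large subunit, had 4824, 4914 and 4951 CPM. RPS4X, an X-linked protein of the small subunit, had 2550, 2583 and 2648 CPM. RPS27A, made as a fusion with ubiquitin, had 2616, 2471 and 2675 CPM. RPSA and RPL41 were past 1.1-fold in single-positive over parental cells. RPSA, also known as a laminin receptor, had 1137 and 1154 CPM in double-positive and single-positive cells, and 1021 CPM in parental cells. RPL41, the shortest ribosomal protein at 25 residues, had 1209, 1284 and 1138 CPM.

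Double-positive cells had no member at least 1.1-fold above single-positive cells. The nearest were RPL13, at 5252 CPM in double-positive and 4894 CPM in single-positive cells (log2 ratio 0.10), RPL9 (0.096), RPS7 (0.094), RPS3A (0.085) and RPL39L (0.083). The interval of RPL39L, -0.020 to 0.19, included 0. Against parental cells, double-positive cells were highest for RPL13A, RPL37A, RPL21 (0.16), RPSA (0.16) and RPL10A (0.15). They were lowest for RPL8, RPL12, RPL30, RPS27L and RPLP1.

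RPL8 and RPL30 had their lowest level in double-positive cells. RPL8 (chromosome 8, 144789765 to 144792587, minus strand), a protein near the peptidyl transferase centre, had 2955, 3324 and 3378 CPM in double-positive, single-positive and parental cells. RPL30 (chromosome 8, 98024851 to 98046469, minus strand) had 2210, 2394 and 2469 CPM. All 4 members on chromosome 8 were lower in double-positive over single-positive cells, with a median of -0.16. The 335 other measured genes of chromosome 8 had a median of -0.14 there, against -0.026 for all genes. Over parental cells the medians were -0.11 and -0.070.

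Some members have a measured paralogue. RPL36AL, which encodes a protein almost identical to that of RPL36A, was outside the rule and ran the other way: 674, 622 and 699 CPM in double-positive, single-positive and parental cells. The pair summed to 895, 901 and 912 CPM, a log2 ratio of -0.016 for single-positive over parental cells, against 0.39 for RPL36A alone. Reads of near-identical copies can be assigned to either, so the excess of RPL36A in single-positive cells is uncertain. RPS27, in contrast, was higher where RPS27L was lower: 980, 1177 and 957 CPM. RPS27L made up 9.07%, 7.39% and 10.0% of that pair. RPL39L made up only 0.854%, 0.731% and 0.765% of its pair with RPL39. FAU and GNB2L1 encode ribosomal proteins under other symbols and were also outside the rule. FAU had 2067, 2146 and 2193 CPM in double-positive, single-positive and parental cells, and GNB2L1 had 1963, 2093 and 2090 CPM.

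Single cells varied far more than the libraries did. The ribosomal protein share of a cell ran from 12.3% (5th percentile) over 16.5% (median) to 20.5% (95th percentile) in double-positive cells. It ran over 13.4%, 16.8% and 20.8% in single-positive cells and over 12.6%, 16.7% and 21.1% in parental cells. With each cell thinned to 6500 UMIs, the SD over cells was 2.60, 2.63 and 2.67 percentage points, against about 0.46 points from counting alone. The 60S and 40S shares of a cell moved together, with Pearson's r of 0.86, 0.88 and 0.86 over the cells of each library. That r is a description, as both shares come from the same cells and the same total.

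Deep cells held a larger share of ribosomal protein mRNA. The 25% of cells with most UMIs had 17.3% against 16.0% in the 25% with fewest in the double-positive library. The shares were 17.8% against 15.2% in the single-positive and 17.95% against 16.1% in the parental library. At least 1.1-fold higher in deep cells were 26, 57 and 36 of the 79 members in double-positive, single-positive and parental cells. Among all genes the shares were 26.3%, 25.2% and 22.1%, and among genes with at least 200 CPM they were 29.9%, 50.7% and 34.4%. Abundant genes in general were more often higher in deep cells, and in double-positive cells the members (26 of 79) lay near that background. Mitochondrial share was lower in deep cells. Its median was 1.61%, 0.640% and 0.352% in deep cells and 2.66%, 3.27% and 1.70% in shallow ones.

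The members did not all follow the sum. In parental cells RPL12 had 4697 CPM in the deepest 25% of cells and 3336 CPM in the shallowest, and RPLP0 had 5598 and 4172 CPM. In double-positive cells RPL12 had 4011 and 3198 CPM, and RPLP0 5154 and 4120 CPM. RPL27A and RPL13A ran the other way in all 3 libraries. RPL27A had 564 CPM in deep and 663 CPM in shallow double-positive cells, 613 and 767 CPM in single-positive cells, and 483 and 650 CPM in parental cells. RPL8 and RPL30 stood out in the single-positive library, with RPL8 at 3614 CPM in deep and 2475 CPM in shallow cells (log2 ratio 0.55), and RPL30 at 2622 and 1797 CPM (0.54). RPL39L, described further on, had the highest ratio of deep over shallow cells in each library, at 0.42, 0.99 and 0.51.

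**Figure D3:**
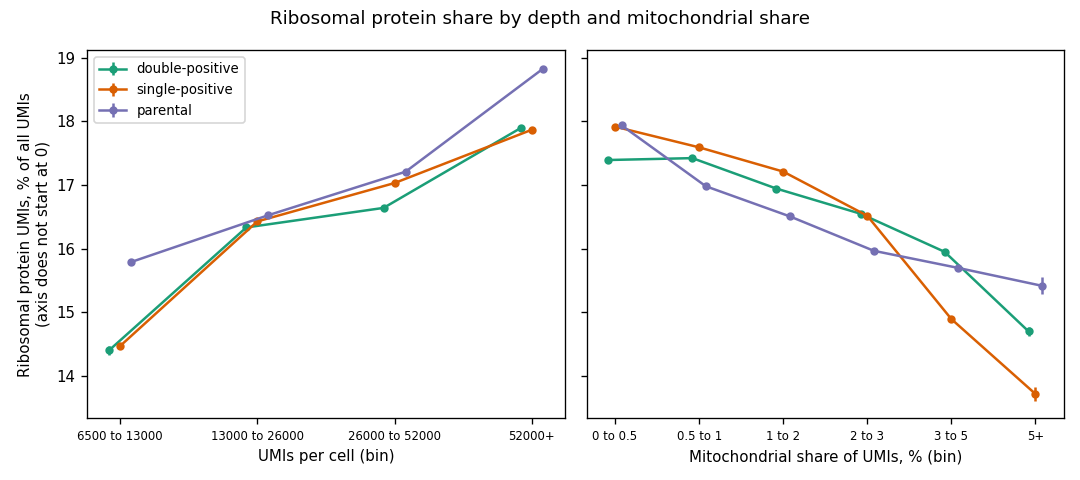
Share of UMIs from the 79 genes (y axis, %, not starting at 0) in cells grouped by UMIs per cell (left) and by mitochondrial share of UMIs (right), with 1 line per library and 95% exact intervals. The share climbs with depth, from 14.4% to 17.9% in double-positive cells, and drops with mitochondrial share, to 14.7% in double-positive, 13.7% in single-positive and 15.4% in parental cells with 5% or more.

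Cells with many mitochondrial UMIs had fewer ribosomal protein UMIs. Below 0.5% mitochondrial UMIs the share was 17.4% in double-positive, 17.9% in single-positive and 17.9% in parental cells. At 5% or more it was 14.7%, 13.7% and 15.4%, over 64, 20 and 22 cells. Mitochondrial UMIs themselves take part of the total, but the order held as a share of the other UMIs: 17.44%, 17.96% and 17.97% below 0.5%, and 15.8%, 14.7% and 16.4% at 5% or more. Cells of low mitochondrial share had 12, 8 and 29 members at least 1.1-fold higher than the other cells of the double-positive, single-positive and parental libraries. Among all genes the shares were 22%, 10.1% and 11.3%, and among genes with at least 200 CPM 19.9%, 13.9% and 24.7%. The count of the parental library (29 of 79) lay above both backgrounds and that of the double-positive library (12 of 79) below both. RPL4 and RPS2 were among the 3 lowest members in these cells in each library. RPS2, a protein at the mRNA entry site of the 40S subunit, had 2920 CPM in low-mitochondrial parental cells against 3504 CPM in the others.

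Ribosomal protein mRNA barely followed the cell cycle, whereas the factors that build ribosomes did. The share was 16.7% in G2M and 16.7% in G1 cells of the double-positive library, 17.1% and 17.2% in the single-positive library, and 17.2% and 17.0% in the parental library. The log2 ratios of G2M over G1 cells were 0.0052, -0.0053 and 0.014. At least 1.1-fold higher in G2M cells were 6, 5 and 7 of the 79 members, against 32.4%, 33.1% and 30.8% of all genes. Among the 777 genes with at least 200 CPM, 168, 165 and 163 were. Of 51 measured genes for ribosome biogenesis, 42, 40 and 34 were at least 1.1-fold higher in G2M cells, with median log2 ratios of 0.28, 0.29 and 0.24. FBL, the methyltransferase of the nucleolus, stood at 0.61 in double-positive cells, UTP20, a factor for the small subunit, at 0.66 in single-positive cells, and LYAR, a nucleolar protein, at 0.61 in parental cells. NOP10, a small protein of the pseudouridylating particles, was lower in G2M cells of each library, at -0.17, -0.18 and -0.16.

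Median depth differed between the phases, with 34716 UMIs in G2M and 26367 in G1 cells of the double-positive library. It was 42881 and 35103 in the single-positive and 28794 and 20856 in the parental library. Within the list of members, RPL39L, RPS20, RPL12, RPL41 and RPL3 were at least 1.1-fold higher in G2M cells of all 3 libraries, and RPL34 or RPS27 was the lowest. RPL34 had 1093 CPM in G2M and 1226 CPM in G1 cells of the double-positive library.

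**Figure D4:**
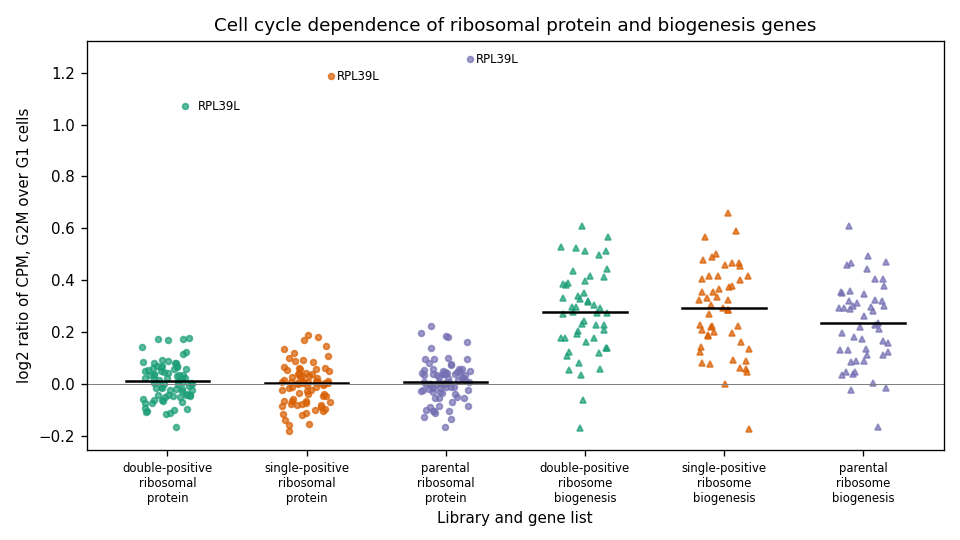
Log2 ratio of CPM in G2M over G1 cells (y axis) for the 79 ribosomal protein genes (circles) and 51 ribosome biogenesis genes (triangles) of each library, with black bars at the medians. RPL39L stands at 1.07, 1.19 and 1.252 in double-positive, single-positive and parental cells, apart from the other members, whose medians lie near 0.

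RPL39L was the exception among the members. It encodes a paralogue of RPL39 that is abundant in testis, where in mice its ribosomes serve male germ cells, and that some cancer lines also express (chromosome 3, 187120948 to 187180908, minus strand, 51 residues). It had 37.2 CPM in G2M and 17.7 CPM in G1 cells of the double-positive library, 36.2 and 15.9 CPM in the single-positive library, and 37.0 and 15.6 CPM in the parental library. The log2 ratios were 1.07 (0.90 to 1.24), 1.19 (0.98 to 1.39) and 1.252 (1.08 to 1.43). S phase cells lay between, with 32.3, 27.5 and 29.6 CPM. The gene was thus about 2-fold higher in G2M than in G1 cells of every library, although its level over all cells was nearly equal at 28.7, 27.1 and 27.1 CPM.

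The cycle dependence of RPL39L held at like depth in most bins of UMIs per cell. In cells with 26000 to 52000 UMIs it had 37.6 CPM in G2M and 18.9 CPM in G1 cells of the double-positive library. In the same bin it had 42.1 and 13.7 CPM in the single-positive and 36.5 and 17.96 CPM in the parental library. The partner RPL39 did not share it: 3216 CPM in G2M and 3443 CPM in G1 double-positive cells, 3675 and 3550 CPM in single-positive cells, and 3430 and 3619 CPM in parental cells of that bin. In cells with 13000 to 26000 UMIs it had 38.7 CPM in G2M and 14.0 CPM in G1 cells of the double-positive library, and 36.6 and 11.9 CPM in the parental library. Counts were few in cells with 6500 to 13000 UMIs. Parental cells of that depth had 38.5 CPM (27 UMIs) in G2M and 15.9 CPM (23 UMIs) in G1 cells. Double-positive cells had 19.2 CPM (6 UMIs, 7.06 to 41.9) in G2M, 48.0 CPM (9 UMIs) in S and 17.5 CPM (9 UMIs) in G1 cells, and single-positive cells had 6.12 CPM (7 UMIs, 2.46 to 12.6) in G2M and 16.7 CPM (11 UMIs, 8.32 to 29.8) in G1 cells. In single-positive cells with 13000 to 26000 UMIs the values were 24.7 CPM (24 UMIs) in G2M and 20.6 CPM (32 UMIs) in G1 cells, with overlapping intervals.

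**Figure D5:**
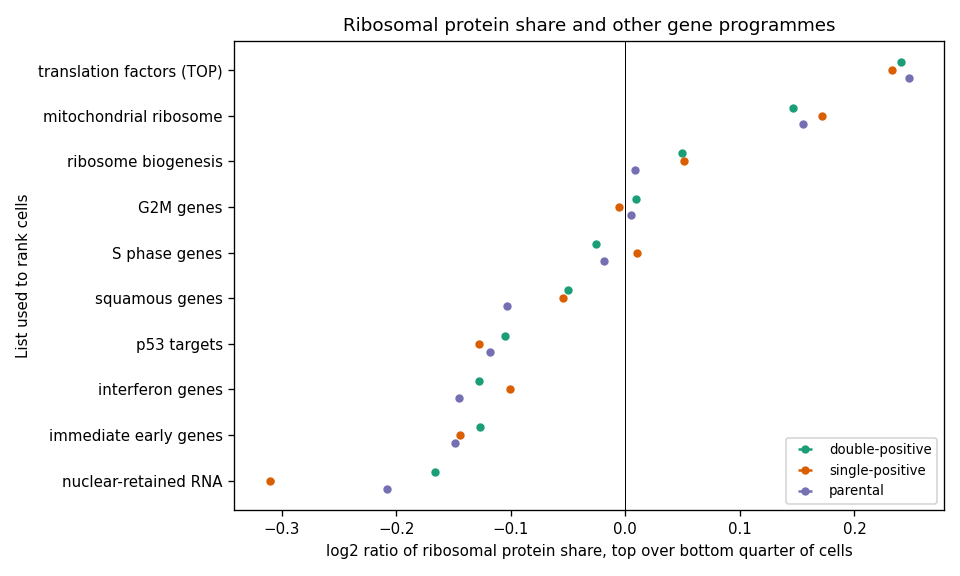
Log2 ratio of the ribosomal protein share between the 25% of cells highest and the 25% lowest for each gene list (rows), with cells thinned to 6500 UMIs, ties at the limits included and 1 point per library; 95% intervals for counting error are smaller than most points. Translation factors lie at 0.23 to 0.25 and nuclear-retained RNAs at -0.17, -0.31 and -0.21 for double-positive, single-positive and parental cells.

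Between cells of 1 library, ribosomal protein mRNA moved with the other TOP genes. Cells tied at a limit were all kept, so an end could hold more than 25% of cells. The 25% of cells highest for translation factors and related TOP genes had 18.7% ribosomal protein UMIs, against 15.8% in the lowest 25%, in the double-positive library. The shares were 19.0% against 16.1% in the single-positive and 19.0% against 16.0% in the parental library. Ranked by mitochondrial ribosome genes, the log2 ratio was 0.15, 0.17 and 0.16. Ranked by ribosome biogenesis genes it was only 0.050, 0.051 and 0.0083. It was below 0 in each library for interferon genes (-0.13, -0.10 and -0.15), p53 targets (-0.10, -0.13 and -0.12), immediate early genes (-0.13, -0.14 and -0.15), squamous genes (-0.050, -0.054 and -0.10) and nuclear-retained RNAs (-0.17, -0.31 and -0.21). Single-positive cells highest for nuclear-retained RNAs had a median of 12801 UMIs and 3.21% mitochondrial UMIs, against 40774 UMIs and 0.726% in the lowest, and the part of depth and RNA quality was not tested. S phase and G2M lists lay between -0.026 and 0.010. All shares come from the same thinned total, so a higher share of 1 list leaves less for the others, and the part of this was not tested.

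Genes that build ribosomes had larger median differences between single-positive and parental cells than the ribosomal proteins. Of 51 ribosome biogenesis genes, 28 were at least 1.1-fold higher and 1 lower in single-positive over parental cells, with a median of 0.15, against 29.7% and 11% of all genes and their median of 0.056. In double-positive over single-positive cells 0 were higher and 16 lower, with a median of -0.084, against 12.7% and 22.6%, and in double-positive over parental cells 7 were higher and 4 lower (0.072), against 19.9% and 11.7%. MYBBP1A, a nucleolar regulator of RNA polymerase I, had 31.8 CPM in single-positive and 24.6 CPM in parental cells, and RRP12, a factor for subunit export, 33.5 and 26.0 CPM. BOP1, a factor for the large subunit, had 34.8, 52.6 and 43.3 CPM in double-positive, single-positive and parental cells. Genes of chromosome 8 in general had a median of -0.14 in double-positive over single-positive cells, as given above. The part of chromosomal position in the ratios of single genes, here and in the translation lists below, was not tested. S phase genes moved in the same direction, with 37 of 42 higher in single-positive over parental cells and a median of 0.33. G1 cells made up 41.0% of double-positive, 35.6% of single-positive and 43.0% of parental cells, and the part of this in the lists' differences was not tested.

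Translation factors stayed closer to the ribosomal proteins. Of 23 measured, 7 were higher and 0 lower in single-positive over parental cells (median 0.071), 0 and 4 in double-positive over single-positive cells (-0.054), and 3 and 1 in double-positive over parental cells (-0.027). The share higher in single-positive over parental cells (7 of 23) was close to the 29.7% of all genes, and the share lower in double-positive over single-positive cells (4 of 23) was below their 22.6%. EEF2, the elongation factor that moves the ribosome along the mRNA, had 862, 1011 and 853 CPM in double-positive, single-positive and parental cells. TPT1, a TOP gene with a growth-related product, had 3377 CPM in double-positive and 3188 CPM in single-positive cells. EEF1D had 550 CPM in double-positive and 623 CPM in parental cells. Of 14 genes for RNA polymerase I and its factors, 6 were higher and 0 lower in single-positive over parental cells, among them UBTF with 45.2 against 39.8 CPM. The 76 mitochondrial ribosome genes had 8 higher and 8 lower in that comparison, where 29.7% of all genes were higher and 11% lower. MRPS10 had 83.2, 65.6 and 66.7 CPM in double-positive, single-positive and parental cells.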

How the data were processed

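Per the labels' protocols, BxPC-3 cells were captured in droplets and their mRNA read from the 5' end with version 2 of a 10x kit. The deposited matrices hold raw counts of UMIs per gene and barcode, with all 737280 barcodes and no filter on cells. Build GRCh38 and the tools Cell Ranger 4.0.0 and Seurat 4.0.6 are named per the submitters' processing notes. Annotation release and strand setting are not given in the sources used here. Totals were 62517276 UMIs for the double-positive, 51637677 for the single-positive and 65107147 for the parental library.

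Barcodes with at least 6500 UMIs were kept as cells, and no doublet was removed, since the double-positive sort selects on both signals. For each library the UMIs of its cells were added up per gene and expressed per 1000000 UMIs (CPM). Log2 ratios have exact conditional binomial (Clopper-Pearson) intervals at 95%. UMI counts were not divided by transcript length, so levels are compared between libraries and not between genes. Free RNA was read from barcodes with 100 UMIs or fewer. Phases were scored with scanpy 1.11.5 on cells thinned to 3000 UMIs, and programmes and per-cell spread on cells thinned to 6500 UMIs. Protein lengths came from GENCODE 29 on GRCh38 and matched all 79 members by gene identifier. The interval code was tested on simulated data. Processed pseudogenes and readthrough genes share sequence with many members, so levels of single members carry an uncertainty from read assignment.

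The members and the 11 gene lists were chosen with earlier results of these data known. In each of 3 comparisons the 5 highest and 5 lowest members were named, with RPLP0, RPLP1, RPLP2, RPSA, RPL5, RPL11, RPS6, RPL10, RPS4X, RPS27A, RPL41 and the paralogues RPS27L, RPL39L, RPL3L and RPL10L throughout. By phase, depth and mitochondrial share the 3 highest and 3 lowest members of each library could be named, and of 4 related lists the 2 highest and 2 lowest. RPL36AL, RPS27 and RPL39, the members reported by chromosome and those listed at the stricter limit were named after their values were seen.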

Additional observations from a re-analysis of the deposited data

How the results depend on the processing

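No paired analysis was possible because each group had 1 library and the groups share fewer than 2 replicate numbers. Recomputed were the summed level, subunit balance, count of members apart, 3 contrasts of cell state and the ratios of named members between libraries. The start motif, length split, gene lists, programmes, per-cell spread and phase values of RPL39L were not recomputed.

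For the summed level, in the order double-positive over single-positive, single-positive over parental and double-positive over parental, the values were -0.0514, 0.016 and -0.0353 in cells with at least 13000 UMIs. They were -0.0253, 0.0371 and 0.0118 without cells under 0.5% mitochondrial UMIs, -0.0634, 0.059 and -0.0044 in a shared range of 22974 to 32998 UMIs, and -0.0415, 0.0144 and -0.0271 in G1 cells. They were -0.0322, 0.0144 and -0.0179 with mitochondrial UMIs left out, -0.0171, -0.0459 and -0.063 with median-of-ratios scaling, -0.0232, -0.0026 and -0.0258 with cells weighted alike, and -0.0381, 0.006 and -0.0322 with 10% of free RNA subtracted. The sign of single-positive over parental cells changed with median-of-ratios scaling and with cells weighted alike, and that of double-positive over parental cells without low-mitochondrial cells; the cause was not tested.

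Subunit balance was -0.0136, -0.0015 and -0.0151 in the shared range. For double-positive over single-positive cells it was 0.0033 in G1 cells. For single-positive over parental cells it was -0.0072 without low-mitochondrial cells and -0.0136 with cells weighted alike. For double-positive over parental cells it was -0.0091 and -0.0175 under these settings, and -0.0221 in G1 cells. Members at least 25% above the lower library numbered 3, 6 and 0 in the same order of comparisons, and at 1.1-fold double-positive over parental cells had 2 without low-mitochondrial cells, 4 in the shared range and 2 with cells weighted alike.

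Within libraries, in the order double-positive, single-positive and parental, G2M over G1 cells gave 0.0024, -0.0239 and 0.0021 with phases at 6500 UMIs, -0.0319, 0.0469 and 0.0057 in the shared range, and 0.0164, -0.0221 and 0.0041 with cells weighted alike. Without thinning it gave -0.0077 in double-positive and -0.0178 in single-positive cells, and at 13000 UMIs or more 0.0023 and 0.0007. Without low-mitochondrial cells it gave -0.0227 in single-positive and -0.0176 in parental cells. The sign of this ratio was thus not stable in any library.

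Deep over shallow cells gave 0.0634, 0.0749 and 0.0784 when split at the median, 0.0943, 0.082 and 0.1304 at 13000 UMIs or more, 0.112, 0.2684 and 0.0893 without low-mitochondrial cells, 0.1461, 0.1864 and 0.1134 in G1 cells, 0.099, 0.1931 and 0.1363 with mitochondrial UMIs left out, and 0.1275, 0.2494 and 0.1701 with free RNA subtracted. With cells weighted alike it gave 0.127 in double-positive and 0.2383 in single-positive cells. Low over higher mitochondrial share gave 0.0745, 0.0954 and 0.1151 at a limit of 1%, 0.0769, 0.1037 and 0.0452 in the shared range, 0.0571, 0.0486 and 0.0833 in G1 cells, 0.0346, 0.0597 and 0.0999 with mitochondrial UMIs left out, and 0.075, 0.1157 and 0.114 with cells weighted alike. In single-positive and parental cells it gave 0.067 and 0.1135 at 13000 UMIs or more, and 0.0843 and 0.1292 with free RNA subtracted. Both stayed above 0 in each setting named.

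Of 62 values for named members, 55 left their main counting interval with median-of-ratios scaling, 44 without low-mitochondrial cells and 41 with equal weights. In the shared range 41 did so besides RPS27L, and in G1 cells 32. The count was 24 with mitochondrial UMIs left out, 14 with free RNA subtracted and 5 at 13000 UMIs or more. Median-of-ratios scaling changed the sign of 9, the shared range 10, leaving out low-mitochondrial cells 10, equal weights 6 and G1 cells 5. Of these, RPS27L in single-positive over parental cells was past 1.1-fold and stood at 0.0903 in the shared range, which held 142 single-positive cells. A second library per group is what these data lack; depth is not the limit for most members, while RPL39L, with 1366 to 1754 UMIs per library, is limited by counts.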
